A study of Mus musculus with 12 samples.

Results

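Fat cell genes were followed in kidney RNA of mice given cannabidiol (CBD), a non-psychoactive compound of the hemp plant. The 9 genes were Adipoq, Car3, Cfd, Plin1, Cidec, Fabp4, Lep, Retn and Lipe, chosen by symbol from the 57180 genes in the count tables, and 8 of the 9 had enough counts to be among the 17163 genes tested, while Lep had not. Car3 entered the list because its level in these same mice was lower at 20 mg CBD than in the controls, so the difference of the members between those groups is given as a description and not as a test.

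Poly(A) RNA was sequenced from the kidneys of 12 male C57BL/6J mice, an inbred strain, with 4 mice in each of 3 groups and 1 library per mouse. Control mice were injected into the peritoneum every day for 28 days with the vehicle, saline containing Tween 80, and the treated mice received 10 or 20 mg CBD per kg of body weight in the same vehicle on the same schedule. All 3 groups therefore shared the injections and the vehicle, and no uninjected mice were among the samples. The libraries held 15417867 to 23532088 counts on genes, and the mitochondrial share was under 10% in 4 of them (control mouse 2, mice 1 and 3 at 10 mg and mouse 3 at 20 mg) within a range of 3.53% to 23.4%. Levels are given in CPM (counts per 1e6 counts of the library, scaled by the trimmed mean of M values, TMM). Among the 9 kidney markers read, Kap, an androgen-regulated proximal tubule gene, had the highest mean over the 12 mice, 19409 CPM. Slc34a1, the proximal tubule phosphate transporter, followed with 3157 CPM.

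Fat cells store triglycerides in a large lipid droplet and release them as fatty acids when energy is needed. They also secrete hormones and proteins known as adipokines, and the transcription factors PPARG and the C/EBP proteins switch on many of their genes. The kidney lies in a bed of perirenal fat, and fat is also present in the renal sinus around the vessels at the hilum. In a bulk kidney sample, fewer fat cells and less RNA per fat cell cannot be told apart, and neither can the amount of fat left on the organ at dissection.

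The members lie on 6 chromosomes of the mouse genome build GRCm39. Adipoq (ENSMUSG00000022878) is at chr16:22964106-22976810, Car3 (ENSMUSG00000027559) at chr3:14928489-14937595 and Fabp4 (ENSMUSG00000062515) at chr3:10268785-10273737. Cfd (ENSMUSG00000061780) is at chr10:79726668-79728496, Plin1 (ENSMUSG00000030546) at chr7:79369966-79382718, Cidec (ENSMUSG00000030278) at chr6:113400691-113412721, Lep (ENSMUSG00000059201) at chr6:29060216-29073877, Retn (ENSMUSG00000012705) at chr8:3705324-3710689 and Lipe (ENSMUSG00000003123) at chr7:25078880-25098135. Non-coding genes or pseudogenes lie antisense to Car3 (Gm56774, at most 6 counts in a library), Retn (Gm44776, no count) and Lipe (4732471J01Rik, at most 91 counts), and how the counting used strand is not given in the sources used here. Promoters of 3 members are shown because they hold the letters of motifs bound by factors of fat cells or by general promoter factors. Each window is the 250 bases before the start of the Ensembl canonical transcript in GENCODE vM39 on GRCm39, read 5′ to 3′ on the strand of the gene. Capitals mark a CCAAT box on either strand (ATTGG when reversed) in Adipoq (chr16:22965036-22965285, plus strand) and Car3 (chr3:14928239-14928488, plus strand), and TTGCGCAA, the palindrome bound by C/EBP factors, in Lep (chr6:29059966-29060215, plus strand).
Adipoq: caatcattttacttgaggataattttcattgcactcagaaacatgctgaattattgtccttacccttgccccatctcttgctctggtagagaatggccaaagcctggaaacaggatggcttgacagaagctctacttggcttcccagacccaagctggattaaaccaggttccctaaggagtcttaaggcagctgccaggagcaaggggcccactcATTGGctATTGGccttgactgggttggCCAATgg
Car3: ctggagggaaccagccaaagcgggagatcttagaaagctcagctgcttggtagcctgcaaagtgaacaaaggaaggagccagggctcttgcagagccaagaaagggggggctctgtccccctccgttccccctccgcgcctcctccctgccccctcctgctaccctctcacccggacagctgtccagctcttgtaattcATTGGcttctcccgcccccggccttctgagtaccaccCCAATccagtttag
Lep: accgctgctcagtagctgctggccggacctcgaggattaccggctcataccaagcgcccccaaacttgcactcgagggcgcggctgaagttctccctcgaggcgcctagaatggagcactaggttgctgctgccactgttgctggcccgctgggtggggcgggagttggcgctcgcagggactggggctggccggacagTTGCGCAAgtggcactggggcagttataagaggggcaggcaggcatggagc
On both strands of 21672 promoters of protein-coding genes of the same length, CCAAT was found in 36.5% and TTGCGCAA in 0.161%. Among the 9 members, CCAAT was found in 3 (Adipoq, Car3 and Cidec), and TTGCGCAA in 1 (Lep). The full PPAR/RXR element, a direct repeat of AGGTCA with 1 base between the copies, was in 0.0369% of promoters, TATAAA in 11.9%, the D-box TTATGTAA in 0.835% and the E-box CACGTG in 6.28%, and none of these was in a member's window. The window of Car3 also covers exons of the non-coding genes Gm56774 and Gm64429.

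Adipoq encodes adiponectin, a hormone made almost only by fat cells. In control mice 1 to 4 its level was 10.5, 19.2, 1.06 and 14.5 CPM, at 10 mg it was 6.98, 5.94, 0.0452 and 1.88 CPM, and at 20 mg it was 0, 1.44, 0.12 and 2.60 CPM. The value of 0 came from a library in which 3 counts would have been 0.176 CPM. Control mouse 3 was far below the other controls and lay within the range of both treated groups, so the groups overlapped. The means were 11.3 ± 7.71, 3.71 ± 3.29 and 1.04 ± 1.23 CPM (SD, n = 4 in each group).

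The adipokines Retn, Cfd and Lep had the same order of group means. Retn encodes resistin, and its level was 3.07, 6.73, 0.403 and 3.26 CPM in the controls, 1.68, 1.06, 0 and 0.411 CPM at 10 mg and 0.0586, 0.359, 0 and 0.903 CPM at 20 mg. Cfd encodes adipsin (complement factor D), a protease of the alternative complement pathway, and its level was 45.6, 54.9, 2.92 and 29.9 CPM in the controls, 20.6, 16.7, 0.0903 and 5.87 CPM at 10 mg and 0.293, 3.23, 0 and 11.2 CPM at 20 mg. The mice with the lowest Adipoq at 10 mg (mouse 3) and in the controls (mouse 3) were also lowest for Retn and Cfd. At 20 mg mouse 3 was again lowest for Retn and Cfd, with 0 CPM of both, and mouse 1 was lowest for Adipoq. The groups overlapped for both Retn and Cfd. Lep, the gene of the satiety hormone leptin, was close to the limit of detection, with 1, 26, 0 and 16 counts in the controls, 0, 4, 0 and 2 counts at 10 mg and 0, 0, 0 and 1 count at 20 mg. Its 2 highest mice were control mice 2 and 4, which were also the 2 highest for Adipoq.

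Plin1 and Cidec encode proteins of the fat cell lipid droplet: perilipin 1 coats the droplet and guards it from lipases, and CIDEC promotes the fusion of droplets. Plin1 was at 2.52, 5.82, 0.856 and 5.87 CPM in the controls, 1.46, 1.85, 0.316 and 0.646 CPM at 10 mg and 0.0586, 0.958, 0 and 1.58 CPM at 20 mg. Cidec was at 14.8, 15.3, 1.66 and 15.6 CPM in the controls, 5.83, 6.66, 0.497 and 1.88 CPM at 10 mg and 0.527, 2.04, 0.300 and 2.94 CPM at 20 mg. For both Plin1 and Cidec, 3 of the 4 controls lay above every treated mouse, and control mouse 3 lay within the range of both treated groups. The same held for Adipoq, Retn, Cfd and Fabp4.

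Car3 encodes carbonic anhydrase 3, an enzyme of low hydratase activity that is abundant in fat, liver and slow skeletal muscle. Its level was 55.7, 69.2, 25.6 and 74.8 CPM in the controls, 39.6, 41.1, 16.5 and 18.2 CPM at 10 mg and 12.7, 13.6, 9.66 and 21.7 CPM at 20 mg. Every mouse at 20 mg lay below every control, and the mice at 10 mg overlapped with both groups. The means were 56.3 ± 22, 28.8 ± 13.3 and 14.4 ± 5.13 CPM (SD, n = 4).

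Fabp4 encodes the fatty acid binding protein of fat cells, which endothelial cells and macrophages also make. Its level was 151, 177, 91.1 and 178 CPM in the controls, 106, 101, 67.4 and 81.2 CPM at 10 mg and 67.5, 109, 92.0 and 88.6 CPM at 20 mg. Control mouse 3 again lay within the treated range. Lipe encodes hormone-sensitive lipase, which releases fatty acids from stored fat and is also active in steroid-making cells. It was at 37.3, 33.9, 29.8 and 29.1 CPM in the controls, 29.5, 27.1, 27.1 and 21.9 CPM at 10 mg and 20.7, 35.1, 36.8 and 24.2 CPM at 20 mg, and its groups overlapped throughout.

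**Figure D1:**
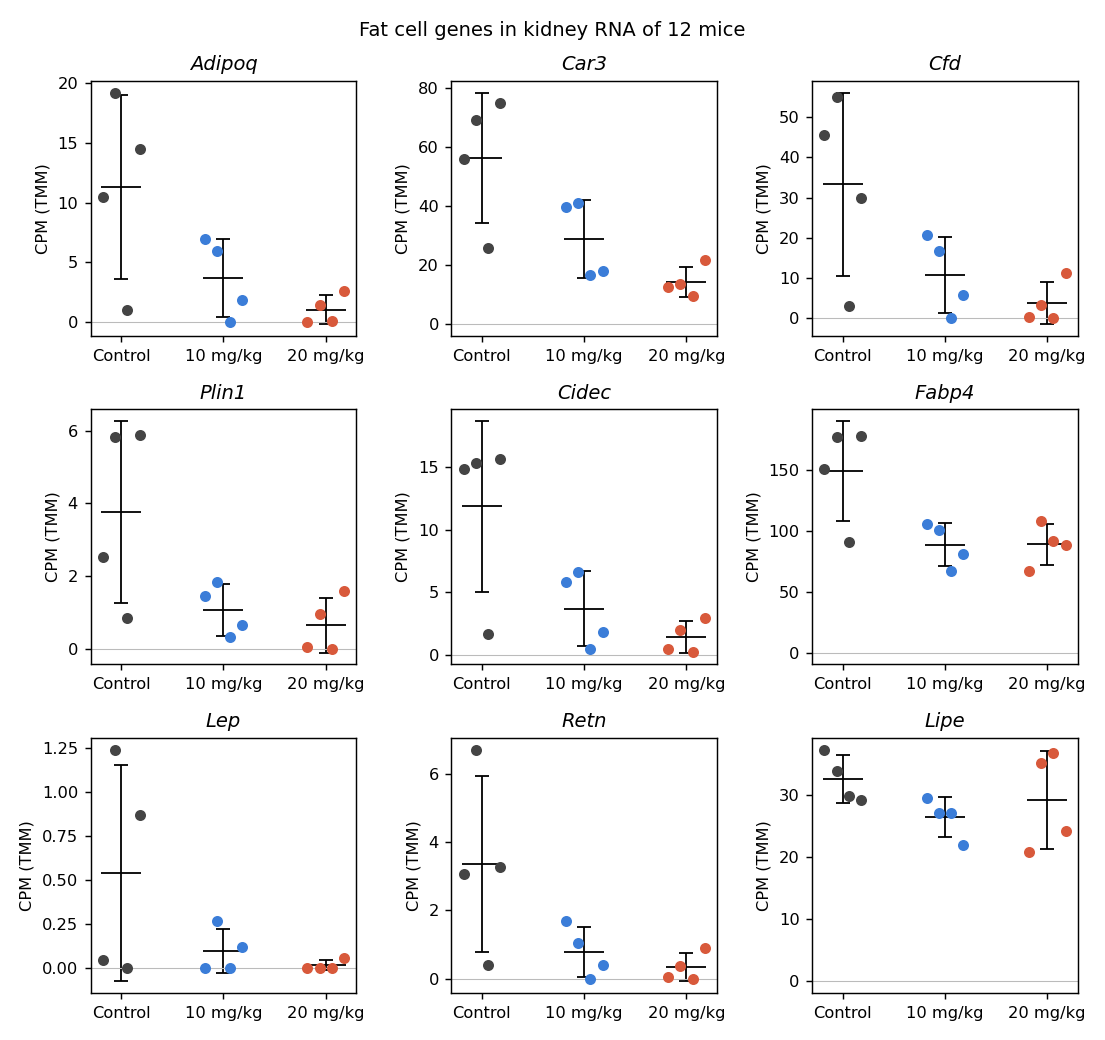
Level in CPM (vertical axis, TMM-scaled) of the 9 fat cell genes in the control, 10 mg and 20 mg groups, with 1 point per mouse and bars for the mean ± SD (n = 4). Control mouse 3 is the low point of the control group for 8 genes, with 1.06 CPM for Adipoq and 25.6 CPM for Car3, and only Car3 has no overlap between the controls and the 20 mg group.

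Per kilobase of the canonical transcript, so that genes can be set beside each other, Fabp4 had the highest level in every group, with 110 CPM per kb in the controls, 65.3 at 10 mg and 65.6 at 20 mg. In the controls it was followed by Cfd (35.4 CPM per kb), Car3 (31.3), Adipoq (8.54), Lipe (8.30), Cidec (4.14), Retn (2.94), Plin1 (1.26) and Lep (0.165). The steps from Fabp4 to Cfd, Car3 to Adipoq, Lipe to Cidec and Plin1 to Lep exceeded the SD of both genes, and the other neighbours did not differ beyond their spread. At 20 mg the order was Fabp4, Car3 (8.01 CPM per kb), Lipe (7.45), Cfd (3.91), Adipoq (0.784), Cidec (0.507), Retn (0.289), Plin1 (0.216) and Lep (0.00433), and the step from Fabp4 to Car3 was the only one beyond both SDs.

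Against the controls, all 8 members tested had a lower fitted level at 10 mg. The log2 fold change was -2.09 for Retn (SE 0.85), -1.83 for Plin1 (SE 0.75), -1.68 for Cidec (SE 0.71), -1.63 for Cfd (SE 1.03) and -1.61 for Adipoq (SE 0.90). Each SE of edgeR is the size of the log2 fold change divided by the square root of the test's F statistic. Retn was at -2.88 without mouse 1 at 10 mg. The log2 fold change was -0.97 for Car3 (SE 0.35), -0.75 for Fabp4 (SE 0.21) and -0.30 for Lipe (SE 0.17). None of the 8 passed edgeR's quasi-likelihood test at an adjusted p under 0.1 over all genes (adjusted p from 0.775 to 0.893), where 0.0291% of all genes tested did (0.0175% as lower), and DESeq2 called none of them either. At an unadjusted p under 0.05, 5 of the 8 members differed, all lower, against 5.67% of all genes in either direction and 2.34% that were lower, and 5 were lower by more than 1 on the log2 scale, against 0.542%. No member had every mouse at 10 mg below every control, which 1.64% of all genes had. The median log2 fold change was -1.62 for the members and 0.012 for all genes tested. These control mice are those whose Car3 brought the gene into the list.

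At 20 mg the fitted log2 fold change against the controls was -3.42 for Adipoq (SE 1.03), -3.31 for Retn (SE 0.96), -3.17 for Cfd (SE 1.12), -3.02 for Cidec (SE 0.78) and -2.51 for Plin1 (SE 0.80). It was -1.97 for Car3 (SE 0.36), -0.74 for Fabp4 (SE 0.21) and -0.16 for Lipe (SE 0.17). As a description, 1 of the 8 members, Car3, was called at an adjusted p under 0.1, where 0.303% of all genes were (0.134% as lower), and it was also the member without overlap, which 2.63% of all genes were in this direction. At an unadjusted p under 0.05 there were 7 members, all lower, where 8.45% of all genes differed and 3.53% were lower, and 6 members were lower by more than 1 on the log2 scale, as were 0.583% of all genes. The median was -2.76 over the members and 0.015 over all genes. Adipoq, Retn, Cfd, Cidec and Plin1 thus had larger fitted differences than Car3 but SEs of 0.78 to 1.12, against 0.36 for Car3. The SEs that DESeq2 gave were 0.93 to 1.53 for the former genes and 0.35 for Car3. DESeq2 called 3 members (Car3, Cidec and Fabp4) among 182 genes in all, and edgeR with the mitochondrial share as a covariate called 6 among 935, against 52 genes without it. Without mouse 4 at 20 mg, the highest of its group for Adipoq, Cfd, Plin1, Cidec and Retn, the log2 fold change was -4.44 for Adipoq, -4.83 for Cfd, -4.54 for Retn, -3.63 for Cidec and -3.45 for Plin1. Without control mouse 3, the call extended to Fabp4 as well, and the call of Car3 was lost in 6 of 12 fits that each left out 1 mouse. Those 12 fits called 14 to 54 of all genes, against 52 with all mice. With the mean of the other members as a covariate, the log2 fold change of Car3 was -0.86 and not called. That fit called 2 of all 17163 genes, against 52 without the covariate.

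Between the doses, with no control mouse in the contrast, 6 members had a lower level at 20 mg than at 10 mg and 2 a higher one. The log2 fold change was -1.81 for Adipoq (SE 1.04), -1.54 for Cfd (SE 1.10), -1.33 for Cidec (SE 0.80), -1.22 for Retn (SE 1.05), -1.0 for Car3 (SE 0.36) and -0.68 for Plin1 (SE 0.85). It was 0.0051 for Fabp4 (SE 0.21), whose sign changed under other scalings, and 0.14 for Lipe (SE 0.18). By edgeR, 0 of the 8 members and 0% of all genes passed at an adjusted p under 0.1 (adjusted p of the members 0.758 to 0.998), 1 member (Car3) was lower at an unadjusted p under 0.05, where 6.31% of all genes differed and 2.84% were lower, and DESeq2 called no member. By size, 4 members were lower by more than 1 on the log2 scale, against 0.746% of all genes, and no member had every mouse at 20 mg below every mouse at 10 mg, which 1.4% of all genes had. The median was -1.11 over the members and -0.0033 over all genes. Without mouse 4 at 20 mg the log2 fold change between the doses was -2.82 for Adipoq, -3.20 for Cfd, -1.94 for Cidec, -2.45 for Retn and -1.62 for Plin1, and without mouse 1 at 10 mg it was -0.42 for Retn. The smallest differences over the 12 fits that each left out 1 mouse were -1.26 for Adipoq, -0.99 for Cfd, -0.92 for Cidec and -0.27 for Plin1. The median over the members ran from -1.78 to -0.63 in these fits.

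**Figure D2:**
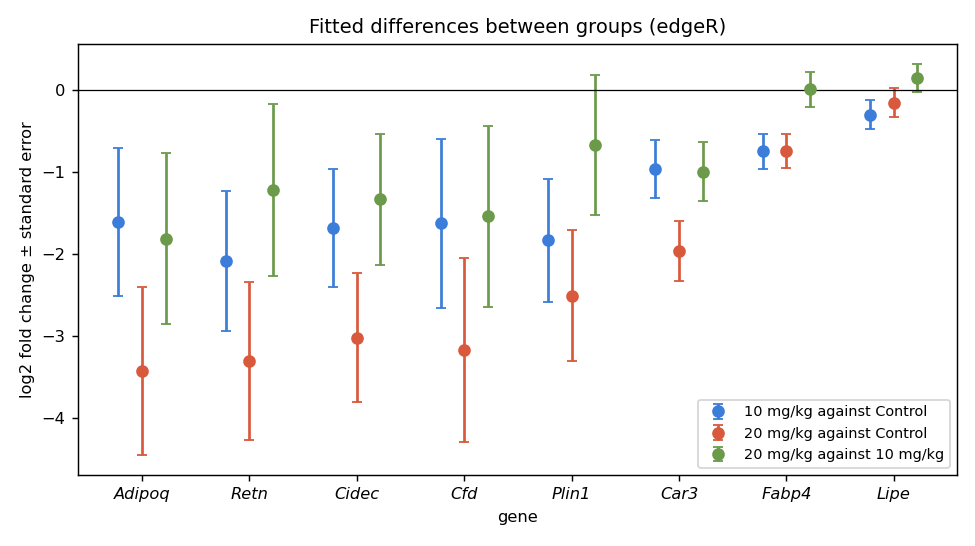
Fitted log2 fold change (vertical axis, edgeR, bars show ± 1 standard error, derived from the F statistic) of the 8 members tested (horizontal axis) for the comparisons of 10 mg and 20 mg with the controls and of 20 mg with 10 mg, which share mice. The 5 genes on the left have differences of -3.42 to -2.51 at 20 mg with wide bars, Car3 has -1.97 with a narrow bar, and Fabp4 and Lipe lie nearer to 0.

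To ask how tightly the members moved together among mice given the same treatment, the group means were removed from the log2 CPM values and Pearson's r was taken over the 12 mice. This measure does not use the differences between groups. It keeps any difference tied to the mouse number, and mouse 3 was the lowest of every group for Car3, Cfd, Plin1, Cidec and Retn. Over the 28 pairs of the 8 members, the median r was 0.842 with a range of -0.024 to 0.970, and 17 pairs were above 0.8. The 10 pairs among Adipoq, Retn, Cidec, Cfd and Plin1 had r from 0.894 to 0.970. With Car3, r was 0.930 for Cidec, 0.910 for Retn, 0.845 for Adipoq, 0.839 for Plin1, 0.834 for Cfd, 0.772 for Fabp4 and 0.020 for Lipe.

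Adipoq served as the reference because it is the member most specific to fat cells. Among 17162 other genes ordered by r with Adipoq, Retn was at rank 1 (r = 0.961, exact permutation p = 0.00065, Spearman's rho = 0.972, exact p = 0.00022), Cidec at rank 2 (r = 0.955, exact p = 0.0022, rho = 0.972, exact p = 0.0010) and Cfd at rank 3 (r = 0.949, exact p = 0.0021, rho = 0.972, exact p = 0.00087). These leading genes were thus members. Plin1 followed at rank 8 (r = 0.894, exact p = 0.0012, rho = 0.853, exact p = 0.0023), Fabp4 at rank 19 (r = 0.847, exact p = 0.0025, rho = 0.629, exact p = 0.031) and Car3 at rank 20 (r = 0.845, exact p = 0.0016, rho = 0.909, exact p = 0.0010). Lipe was at rank 3949 (r = 0.201, exact p = 0.545, rho = 0.119, exact p = 0.749). Of the 7 relations, 6 had an r above 0.8, against 0.186% of all genes, and the median r of all genes with Adipoq was 0.0079.

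The permutation test was two-sided and moved mice within groups, with 13824 arrangements and a smallest possible p of 7.2e-05. After adjustment over all 17162 genes no relation passed (adjusted p = 0.9999 for each r). A single gene at the smallest possible p could not have passed by itself, so no conclusion is drawn from this adjustment. Without adjustment, 202 genes had a positive r at a p under 0.05, which was 1.18%. The 2 mice farthest from the median of Adipoq, control mouse 3 and mouse 3 at 10 mg, were also left out. The group means were not taken again for this, so those removed still included these 2 mice. The r without them therefore also holds an offset between groups and is not a measure within groups alone. It was 0.918 for Retn, 0.918 for Cidec, 0.897 for Cfd, 0.915 for Plin1, 0.736 for Fabp4, 0.735 for Car3 and 0.249 for Lipe. Without the 4 libraries of low mitochondrial share, r was 0.962 for Retn, 0.943 for Cidec, 0.974 for Cfd, 0.977 for Plin1, 0.880 for Fabp4, 0.787 for Car3 and 0.551 for Lipe.

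**Figure D3:**
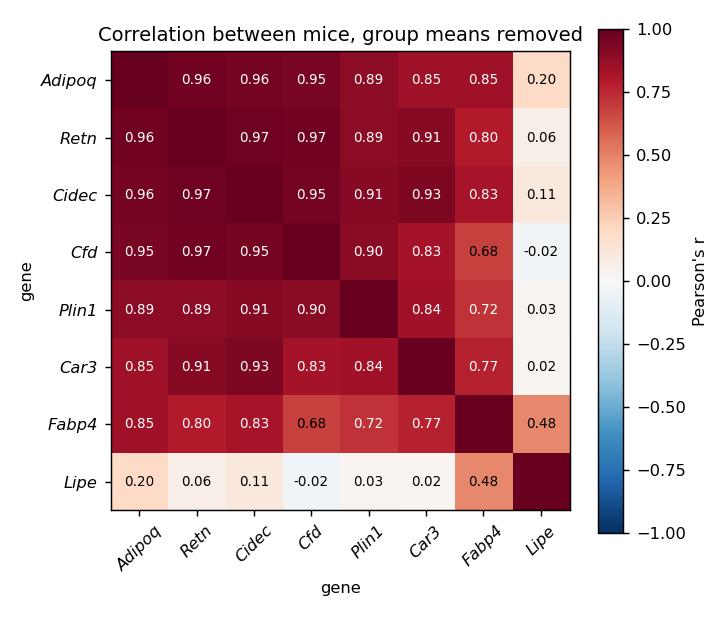
Pearson's r between the 8 members tested (both axes) over 12 mice after the group means were removed, from -1 (blue) to 1 (red). The block of Adipoq, Retn, Cidec, Cfd and Plin1 holds values of 0.894 to 0.970, Car3 has 0.772 to 0.930 with all members but Lipe, and the row of Lipe is pale with the other genes except Fabp4.

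The members differed in how much of their level remained where Adipoq was nearly undetected, with 1 count in mouse 3 at 10 mg and 0 and 2 counts in mice 1 and 3 at 20 mg. In these mice Cfd had 2, 5 and 0 counts. Car3 had 366, 217 and 161 counts, Fabp4 had 1491, 1153 and 1534, and Lipe had 600, 354 and 613. Car3, Fabp4 and Lipe were thus counted far above the limit of detection where Adipoq and Cfd were near or under it.

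Least-squares lines of each member on Adipoq over the 12 mice, in CPM, gave the level that went with no Adipoq. This intercept was 14.8 CPM for Car3, or 26.2% of its control mean, 78.3 CPM for Fabp4, or 52.4%, and 27.7 CPM for Lipe, or 85.2%. It was 1.03 CPM for Cfd (3.09%), 0.751 CPM for Cidec (6.34%) and 0.199 CPM for Plin1 (5.29%), and slightly below 0 for Retn (-0.136 CPM) and Lep (-0.0860 CPM). For Car3 the slope was 3.44 CPM per CPM of Adipoq. The lines include the differences between groups and are a description. Where Adipoq had 20 counts or more, in 9 mice, the counts per count of Adipoq ran from 2.06 to 4.36 for Cfd (median 2.86), from 0.794 to 1.57 for Cidec (1.12), from 0.209 to 0.810 for Plin1 (0.344) and from 0.178 to 0.381 for Retn (0.250). They ran from 3.60 to 24.2 for Car3 (6.92), from 9.23 to 86.1 for Fabp4 (17.0) and from 1.76 to 28.2 for Lipe (4.56), and control mouse 3, which had the fewest Adipoq counts of the 9 mice (21), held the highest value of these 3 genes and also of Cidec, Plin1 and Retn.

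**Figure D4:**
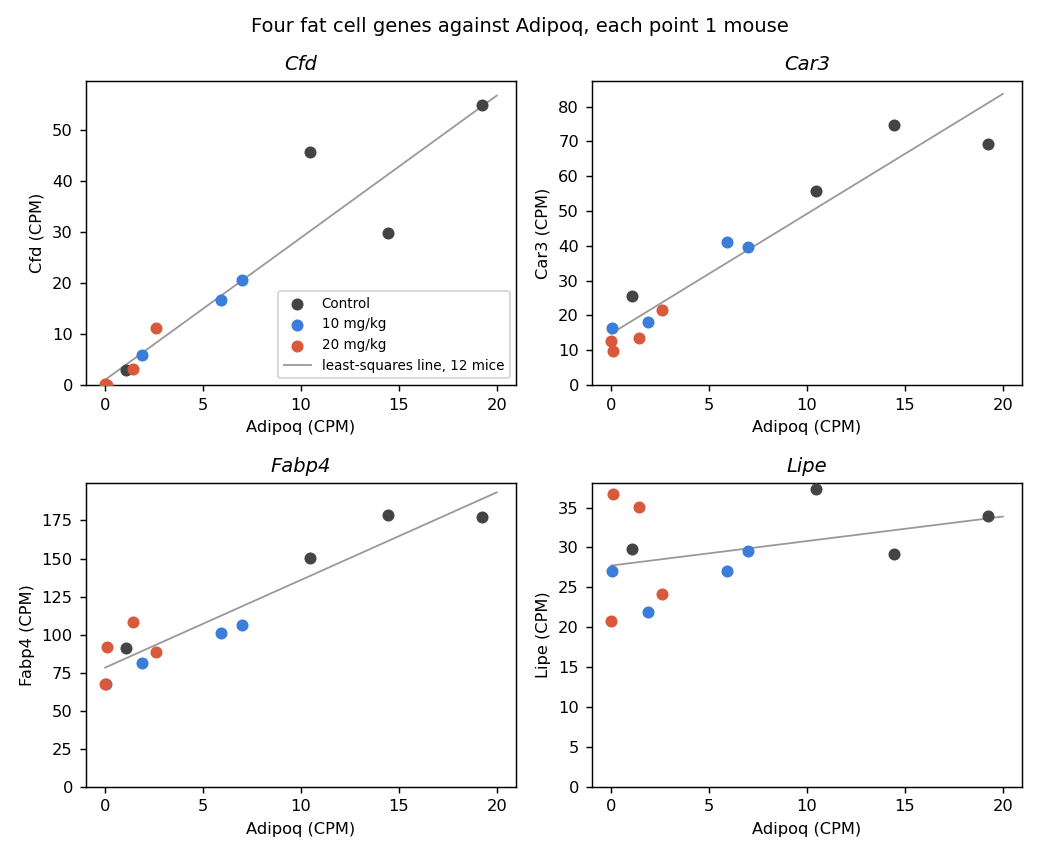
Level of Cfd, Car3, Fabp4 and Lipe (vertical axes, CPM) against that of Adipoq (horizontal axis, CPM) in the 12 mice, with 1 point per mouse, a colour per group and the least-squares line. The line of Cfd meets the vertical axis near 0 (1.03 CPM), those of Car3 and Fabp4 meet it at 14.8 and 78.3 CPM, and Lipe varies little with Adipoq.

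Of 23 further fat cell genes, 21 were tested, and none was called by edgeR in any of the 3 comparisons. At an unadjusted p under 0.05 there were 4 at 10 mg, 3 at 20 mg and 2 between the doses, against 5.67%, 8.45% and 6.31% of all genes. DESeq2 called 0, 2 (Plin4 and Nnat) and 0, where it called 40, 182 and 12 of all 17163 genes. The median log2 fold changes were -0.15, -0.044 and 0.091. The 2 most abundant were Lpl, the lipoprotein lipase of many tissues (946 CPM, r with Adipoq 0.014), and Gpd1, the cytosolic glycerol-3-phosphate dehydrogenase (388 CPM, r -0.33). Both are also made by other kidney cells. Chosen after their values were seen, Plin4, a perilipin of fat cells (r = 0.779), and Adrb3, the beta-3 adrenergic receptor of fat cells (r = 0.718), had log2 fold changes of -0.85 and -1.84 at 10 mg and -1.09 and -2.76 at 20 mg, all short of the threshold in edgeR. Plin4 and Adrb3 had the highest r with Adipoq of the 21 genes, whose median r was 0.069. Nnat had log2 fold changes of -1.22 at 10 mg and -1.86 at 20 mg (edgeR adjusted p = 0.126 at 20 mg) but r = -0.062.

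In the families of the members, edgeR called no other gene in any of the 3 comparisons. Of 15 other carbonic anhydrases, 12 were tested, and the most abundant were Car2, the cytosolic enzyme of tubule cells (202 CPM, log2 fold change -0.29 at 10 mg and -0.20 at 20 mg), and Car12 (176 CPM, -0.20 and -0.21). Of 8 other fatty acid binding proteins, 4 were tested, Fabp3 (55.4 CPM) and Fabp7 (8.65 CPM) were the most abundant, and Fabp9 had no count in any library. The other lipid droplet proteins, 4 of 4 tested, were led by Plin2 (152 CPM) and Plin3 (45 CPM), which are made in most cells. Among 10 receptors and partners of the adipokines, which include the adiponectin receptor Adipor1 (118 CPM), the median r with Adipoq was 0.023. Of the 30 genes tested in these 4 lists, 2 at 10 mg, 8 at 20 mg and 3 between the doses had an unadjusted p under 0.05. The shares of all genes were 5.67%, 8.45% and 6.31%. Among 182 genes in all at 20 mg, DESeq2 called 2 of the 30, C3 and Cfb of the alternative complement pathway. It called none of the 30 in the other comparisons.

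Markers of other tissues were read in the same libraries. Summed endothelial markers (8 genes, led by Plvap and Flt1) ran from 602 to 651 CPM in the controls, 586 to 728 at 10 mg and 614 to 757 at 20 mg, and summed macrophage markers (7 genes, led by Csf1r and C1qa) from 84.9 to 98.9, 84.8 to 98.6 and 75.9 to 111 CPM. Fat stroma and progenitor markers (8 genes, led by Dpp4 and Pdgfra) summed to 198 to 247, 149 to 245 and 190 to 259 CPM, and liver markers (6 genes, led by Apob and Ttr) to 251 to 401, 217 to 360 and 223 to 364 CPM. The sum of the 9 fat cell members was 153 to 384 CPM in the controls, 112 to 212 at 10 mg and 102 to 165 at 20 mg. All of these sums, that of the members included, overlapped among the 3 groups. The sum of the members was led by Fabp4 (mean 109 CPM), Car3 (33.2 CPM) and Lipe (29.4 CPM). These are the genes that were still counted where Adipoq was nearly undetected. Of 11 skeletal muscle markers 4 were tested, led by Pvalb and Eno3, which tubule cells also make (sum 16.6 to 33.2, 17.6 to 29.7 and 18.7 to 36.2 CPM), and of 9 adrenal cortex markers 2 were, Star and Akr1b7 (sum 6.42 to 8.82, 5.52 to 6.87 and 5.36 to 8.67 CPM). Of the genes in these 6 lists of other tissues, 35 were tested and none was called by edgeR or DESeq2. At an unadjusted p under 0.05 there were 5 at 10 mg, 3 at 20 mg and 3 between the doses, against 5.67%, 8.45% and 6.31% of all genes. Of the 9 kidney markers edgeR called none and DESeq2 called 1 at 20 mg, where it called 182 of all genes. This was Lrp2, the endocytic receptor megalin of the proximal tubule (edgeR log2 fold change -0.76, adjusted p = 0.173). At 10 mg, at 20 mg and between the doses, 0, 2 and 2 of the 9 had an unadjusted p under 0.05, against the same shares of all genes. The part of a change in other cells of the kidney in the values of Car3, Fabp4 and Lipe was not tested.

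Brown fat markers followed Adipoq less closely than most members did. Of 10 such genes 6 were tested and none was called by edgeR or DESeq2. At an unadjusted p under 0.05 there were 1 at 10 mg, 3 at 20 mg and 0 between the doses, against 5.67%, 8.45% and 6.31% of all genes. The 2 most abundant were Ppargc1a (71.8 CPM) and Cox7a1 (9.23 CPM), which kidney cells also make. Ucp1, the uncoupling protein that makes heat in brown fat, had 0, 70, 26 and 115 counts in the controls, 1, 27, 4 and 1 at 10 mg and 0, 1, 2 and 20 at 20 mg, and Cidea, a droplet protein of brown fat, had 8, 109, 41 and 103, then 14, 61, 4 and 4, then 1, 1, 0 and 12. Control mouse 1 had no Ucp1 count with 249 counts of Adipoq, while control mouse 3 had 26 with only 21. The r with Adipoq was 0.304 for Ucp1, 0.528 for Cidea and 0.707 for Cox8b, a respiratory chain subunit of brown fat and muscle, each below that of the 6 members from Retn to Car3. Whether these r values differ from those of the members was not tested.

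Of 9 genes of fatty acid synthesis, edgeR called 1 at 20 mg, where 0.303% of all genes were called. This was Fasn, the fatty acid synthase, which fell by 1.09 on the log2 scale (edgeR adjusted p = 0.092). The call was lost in 9 of 12 fits that each left out 1 mouse (adjusted p from 0.052 to 0.323), and without the 4 libraries of low mitochondrial share (log2 fold change -0.93, adjusted p = 0.126). Of all genes, those 12 fits called 14 to 54 and the fit without the 4 libraries called 107, against 52 in the main fit. Its level was 56.1, 110, 54.1 and 118 CPM in the controls, 50.3, 60.8, 43.3 and 39.7 CPM at 10 mg and 38.2, 40.2, 38.7 and 41.5 CPM at 20 mg, and its r with Adipoq was 0.517. The controls highest for Fasn, mice 2 and 4, were those highest for Adipoq. The 2 most abundant genes of the list, Me1 (473 CPM) and Scd1 (184 CPM), had log2 fold changes of -0.11 and -0.84 at 20 mg and did not pass in edgeR. Among 182 genes in all at 20 mg, DESeq2 called Fasn, Scd1, Acaca and Acly, and at 10 mg it called none of the 9. In edgeR, 2 of the 9 at 10 mg, 5 at 20 mg and 1 between the doses had an unadjusted p under 0.05, all lower. Of all genes, 5.67%, 8.45% and 6.31% did in either direction and 2.34%, 3.53% and 2.84% as lower.

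**Figure D5:**
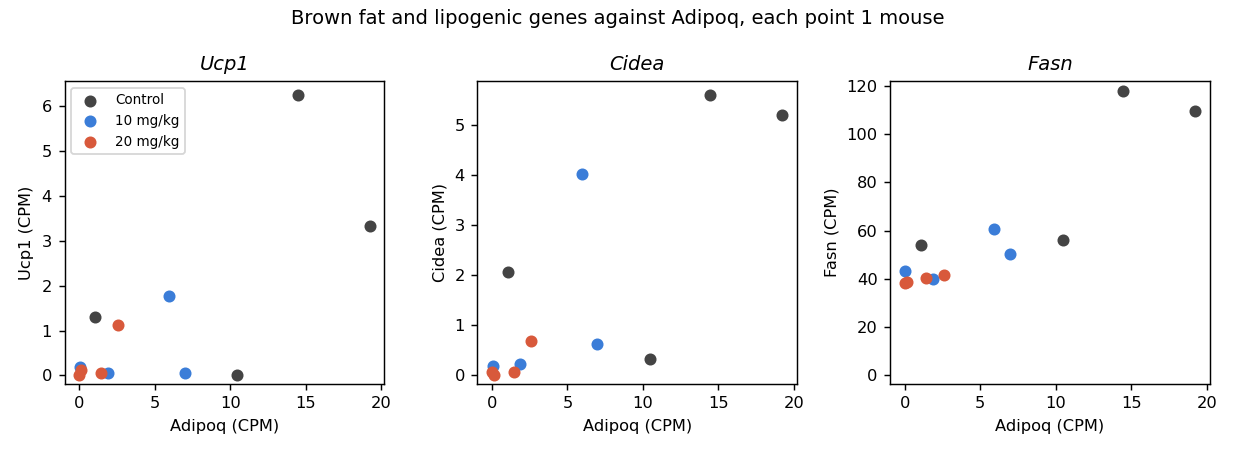
Level of Ucp1, Cidea and Fasn (vertical axes, CPM) against that of Adipoq (horizontal axis, CPM) in the 12 mice, with 1 point per mouse and a colour per group. Control mouse 1, at 10.5 CPM of Adipoq, has no Ucp1, and the highest Fasn values, 110 and 118 CPM, belong to control mice 2 and 4.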

How the data were processed

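Kidney poly(A) RNA of 12 mice (4 per group) was sequenced in pairs of reads with a CORALL kit. The authors used Flexbar for trimming, STAR 2.7.5c for alignment to GRCm39 and HTSeq 1.99.2 for counting per gene, and the deposited files hold these raw counts. The annotation release, the strand setting and any use of molecular identifiers are not given in the sources used here.

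Groups and mouse numbers came from the sample titles. Symbols were matched by Ensembl ID to GENCODE vM39 (99.0% of IDs, holding 99.95% of counts), and summary lines of the counter were left out. In edgeR 4.0.16 (R 4.3.3), counts were filtered with filterByExpr, scaled by TMM and tested over 17163 genes by the quasi-likelihood test with all 12 libraries in 1 fit and Benjamini-Hochberg adjustment, with a gene called at an adjusted p under 0.1, the study's threshold. The common biological coefficient of variation was 0.208. Correlations used log2 CPM with a prior count of 2 and group means removed, in Python 3.11.15 with numpy 2.4.6. CPM are counts scaled by TMM library size and shown per 1e6 counts, and limits from 3 counts cover counting error only. The p-values of edgeR rest on the spread between mice pooled over the 3 groups of 4 and drawn towards the trend over genes. Its SEs were derived from the F statistic of the same test and the log2 fold change. Those of the correlations rest on permutations of mice within groups. Libraries held 15417867 to 23532088 counts, and no libraries were identical. The scripts were tested on simulated data. Alternatives were other scalings, filters and thresholds, DESeq2 1.42.0, covariates, a replicate block and leaving out mice.

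The members and the gene lists were chosen with earlier results of these data known. Named were the 9 members, and of each list every called gene, the 2 most abundant genes and any gene at 0 in all libraries, plus the 10 other genes closest to Adipoq and the 10 closest to Car3 by r. An item that the rule would name and a promoter are not reported here. Genes named outside this rule (Plin4, Adrb3, Nnat, Ucp1, Cidea, Cox8b and the calls of DESeq2 alone) were chosen after their values were seen.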

Additional observations from a re-analysis of the deposited data

Results flagged for a closer look

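Of 27 sets of 4 mice (9 genes in 3 groups), 2 held a mouse that stood apart by Dixon's test at its 95% critical value, where chance gives about 1 in 20. Cidec in control mouse 3 was at 1.66 CPM against 14.8 to 15.6 CPM in the other controls, a gap of 0.944 of the group's range. Lep in mouse 4 at 20 mg was at 0.0565 CPM, which is 1 count, with no count in the other 3 mice.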

How the results depend on the processing

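Of 8 members tested, the number called at 20 mg against the controls was 1 (52 of all 17163 genes), and it was 0 at an adjusted p under 0.05 (23 genes), 3 with DESeq2 (182 genes), 8 of 9 without the filter on low counts (416 of 40012 genes) and 6 with the mitochondrial share as a covariate (935 genes). Leaving out 1 mouse at a time gave 0 to 2 members, where 14 to 54 of all genes were called. The number was 0 without control mouse 1, 2 or 4 or mouse 1, 2 or 3 at 20 mg and 2 without control mouse 3. In these fits the log2 fold change of Car3 was between -2.23 and -1.80, that of Adipoq between -4.44 and -3.01, that of Cfd between -4.83 and -2.76, that of Retn between -4.54 and -2.72 and that of Plin1 between -3.45 and -2.10. The number of further fat cell genes called at 20 mg was 0, and it was 2 with DESeq2, 5 without the filter, 3 with that covariate and 0 to 2 leaving out a mouse (2 without control mouse 3). Without the filter, 7 members and 4 further genes were called at 10 mg (331 of all genes, against 5 with it) and 4 members between the doses (256, against 0). The cause of these differences was not tested. Without the 4 libraries of low mitochondrial share, which was chosen after seeing the data, Car3 was -1.70 at 20 mg and called (107 of 17512 genes were), and Adipoq -2.67. The difference of Fabp4 between the doses changed sign, to -0.0012 with RLE scaling, -0.0013 with DESeq2, -0.040 without the 4 libraries of low mitochondrial share, and -0.11 to 0.12 leaving out a mouse. The r of Lipe with Adipoq, 0.201, was -0.091 to 0.386 leaving out a mouse (negative without mouse 1 at 20 mg), 0.551 without those 4 libraries and 0.755 with a replicate block. With at least 10 counts in every library, Car3, Fabp4 and Lipe remained and the median was -0.74 at 20 mg and 0.0034 between the doses. The median r over pairs was 0.716 to 0.881 over the alternatives, which include CPM on the linear scale, also chosen after seeing the data. Over all genes tested, the mouse numbers did not consistently pair the samples: 4 of 12 same-numbered pairs correlated above 0.1 (range -0.330 to 0.317). Of 12 libraries, 3 correlated best with their own number. For Car3, Cfd, Plin1, Cidec and Retn, however, mouse 3 was the lowest of its group in all 3 groups. Whether a factor tied to the mouse number had a part in this was not tested. With a replicate block, 2 members were called at 20 mg, among 27 genes in all, against 52 genes without it. The SE with the block was 0.46 for Cidec and 0.27 for Car3, against 0.78 and 0.36 without it.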

Other observations

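Outside the lists, the 10 genes that followed Adipoq most closely among the 12 mice after the group means were removed were Gpr39, Hp, Zfp521, Apoc1, Ifi27l2a, Htra3, Cd209a, Dagla, Clec3b and Calr3, with r from 0.928 to 0.865. The 10 closest to Car3 were Hp, Apoc1, Apol6, Gm15510, Pcdhb22, Enox2, Dcaf8, Rhno1, Abcd2 and Btrc, with r from 0.939 to 0.827. Hp, which encodes haptoglobin, the haemoglobin-binding plasma protein that liver and fat make, and Apoc1, an apolipoprotein, were in both sets. Hp had r = 0.904 with Adipoq and 0.939 with Car3, a mean of 3.61 CPM and log2 fold changes of -1.51 at 10 mg and -2.75 at 20 mg (edgeR adjusted p = 0.872 and 0.391). None of these r values is adjusted for the number of genes searched.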
